A study of Mus musculus with 14 samples.

Results

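Aminoacyl-tRNA synthetases attach each amino acid to its transfer RNA, so that the ribosome can place it in a growing protein chain. Mammalian cells carry one set of enzymes for the cytosol and a second set for the mitochondrion, whose ribosomes translate only the few proteins encoded by mitochondrial DNA. Both sets are encoded in the nucleus, and the genes of the mitochondrial set mostly bear the same name with a final 2. *Gars* and *Kars* each make both the cytosolic and the mitochondrial enzyme, and *Eprs* encodes 1 protein that charges both glutamate and proline. During lactation the mammary epithelium produces and secretes large amounts of a small number of milk proteins.

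The members were a list of 35 synthetase genes, 20 cytosolic and 15 mitochondrial, of which 34 were found by symbol in both expression files among 20515 genes with a usable symbol. All 20 cytosolic and 14 of 15 mitochondrial genes were found. *Mars2* was not found by symbol, so it has no level here and entered only the promoter search. The expression data came from whole mammary tissue of 2 mice on day 10 of lactation (L10). The labels give the libraries as replicates 1 and 2, and each was taken to be 1 mouse. Both mice were WT/wTbrg4, written wt/Wap-Tbrg4 by the study, with 1 wild-type allele and 1 Wap-Tbrg4 allele on a C57BL/6 background. This genotype is that of the sample labels, while the names of the deposited files spell it with e in place of w (WTeTbrg4). In the Wap-Tbrg4 allele a CRISPR-Cas9 deletion joined the first exons of *Tbrg4* and *Wap*, and homozygous mutants were not viable according to the study. ChIP-seq samples of the same series and mice of other genotypes were not analysed here, so the values describe 1 genotype, with no control group and no test between groups.

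The level of a gene is its exon FPKM, the number of fragments scaled to exon length and to a factor for each library. This is a level per length and can be compared between genes, while the factor is not given in the sources used here. The intron FPKM is the same measure over its introns. Both were deposited with 1 decimal. How deeply each library was sequenced is unknown, so the 2 mice are the only measure of error. The tissue carried the markers of secretory epithelium: the 7 milk protein genes lay between 8265 and 481937 FPKM, and the luminal genes *Krt8*, *Krt18* and *Epcam* between 14.6 and 145 FPKM. *Acta2*, a myoepithelial gene, was listed at 0 in both mice, while the other 3 myoepithelial markers were detected. *Tbrg4*, the gene at the edited locus, had an exon level of 314.7 FPKM in replicate 1 and 291.5 FPKM in replicate 2. The 10 highest genes held 79.5% of summed exon FPKM in replicate 1 and 90.6% in replicate 2. The 34 synthetases together held 0.0600% and 0.0228%, and their share of the summed FPKM outside those 10 genes was 0.293% and 0.242%.

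The cytosolic synthetases had a median exon level of 22.75 FPKM in replicate 1 and 16.75 FPKM in replicate 2, compared with 6.0 and 5.3 FPKM over 9845 genes with a mean exon level of at least 1 FPKM. *Nars*, the asparagine enzyme, was the highest at 46.8 and 33.5 FPKM (mean 40.15 ± 9.40, SD, n = 2). *Rars*, the arginine enzyme, followed at 33.9 and 34 FPKM and was almost equal in both mice. *Eprs* was measured at 34.4 and 28.1 FPKM. *Qars*, the glutamine enzyme, was measured at 29.3 and 30.4 FPKM. These 4 genes stood above the remaining cytosolic enzymes by their means, at 29.85 to 40.15 FPKM.

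A dense middle group followed, from *Kars* at a mean of 22.4 FPKM to *Mars* at 15.95 FPKM. It held the enzymes for lysine, alanine, threonine, serine, valine, glycine, histidine, leucine, aspartate, isoleucine and methionine. *Aars* showed the widest spread of this group, at 28.5 and 14.7 FPKM, and *Vars* the next, at 27 and 14.1 FPKM. *Iars*, at 17.4 and 18.1 FPKM, and *Gars*, at 21.0 and 19.4 FPKM, were close in the mice.

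The lowest cytosolic enzymes were those for phenylalanine, tyrosine, cysteine and tryptophan. *Farsb*, the beta subunit of the phenylalanine enzyme, was measured at 12.2 and 11.9 FPKM. *Farsa*, its alpha subunit, was the lowest cytosolic gene at 6.4 and 4.0 FPKM. The active enzyme holds equal numbers of alpha and beta chains, whereas *Farsb* exon FPKM was 1.91 times that of *Farsa* in replicate 1 and 2.98 times in replicate 2. *Farsb* overlaps the oppositely oriented *Sgpp2* over 2332 bp in the annotation, and how strand was used in counting is not given in the sources used here. *Wars*, the tryptophan enzyme, was measured at 8.3 and 5.6 FPKM, *Yars*, the tyrosine enzyme, at 11.5 and 7.6 FPKM, and *Cars*, the cysteine enzyme, at 12.4 and 5.8 FPKM.

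**Figure D1:**
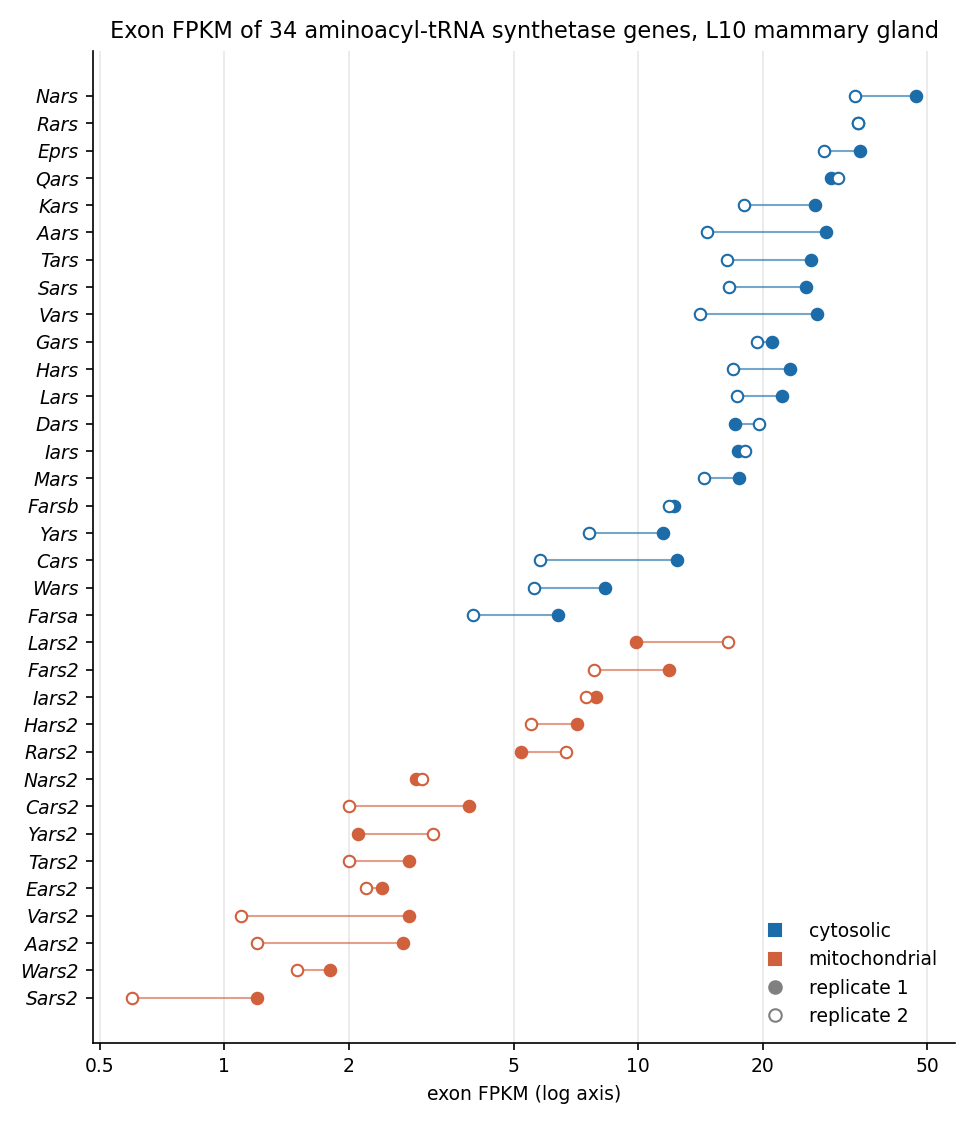
Exon FPKM (log axis) of the 20 cytosolic (blue) and 14 mitochondrial (orange) synthetase genes, ordered by their mean within each set. Filled points are replicate 1, open points replicate 2, and the line joins the 2 mice. *Nars* is highest at 46.8 and 33.5 FPKM, and *Sars2* lowest at 1.2 and 0.6 FPKM.

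The mitochondrial set was lower as a group, with median exon levels of 2.85 and 2.60 FPKM, below the medians of the 9845 genes. Those genes had passed the filter of 1 FPKM, and over all 20515 genes the medians were 0.8 and 0.7 FPKM. The mitochondrial set spread into 2 levels. In 5 of the 14 genes the mean was 5.95 FPKM or more, and the other 9 had means of 2.95 FPKM or less. *Lars2*, the leucine enzyme, was the highest by its mean at 9.9 and 16.5 FPKM. *Fars2*, the phenylalanine enzyme, was measured at 11.9 and 7.8 FPKM. *Iars2* stood at 7.9 and 7.5 FPKM. The histidine and arginine enzymes completed this upper group, *Hars2* at 7.1 and 5.5 FPKM and *Rars2* at 5.2 and 6.7 FPKM.

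In the lower group *Nars2* was measured at 2.9 and 3.0 FPKM and *Ears2*, the glutamate enzyme, at 2.4 and 2.2 FPKM, both close in the mice. *Cars2*, at 3.9 and 2.0 FPKM, *Aars2*, at 2.7 and 1.2 FPKM, and *Vars2*, at 2.8 and 1.1 FPKM, were higher in replicate 1. *Yars2*, at 2.1 and 3.2 FPKM, was higher in replicate 2. *Tars2* had 2.8 and 2.0 FPKM and *Wars2* 1.8 and 1.5 FPKM. *Sars2*, the serine enzyme, was the lowest of all members at 1.2 and 0.6 FPKM, and its mean alone was below 1 FPKM, so that 33 of 34 members passed that filter.

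When the 34 genes were ordered by mean level, the ranges of the 2 mice overlapped for 30 of 33 neighbours. The 3 pairs of neighbours without overlap were *Qars* and *Kars*, *Farsa* and *Cars2*, and *Wars2* and *Sars2*. Genes further apart in the order could still overlap. *Aars* (28.5 FPKM in replicate 1) did so with *Eprs* (28.1 FPKM in replicate 2), and *Sars2* (1.2 FPKM in replicate 1) with *Vars2* (1.1 FPKM in replicate 2). Only between *Farsa* (4.0 FPKM in replicate 2) and *Cars2* (3.9 FPKM in replicate 1) did all genes above stay apart from all below. Across the 34 members, which share the same 2 libraries, Spearman's rho of the exon levels between the mice was 0.90. Within the cytosolic genes it was 0.72 (n = 20), and within the mitochondrial genes 0.80 (n = 14).

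The cytosolic median exceeded the mitochondrial median in both mice. On the log2(exon FPKM + 1) scale the difference of medians was 2.62 in replicate 1 and 2.31 in replicate 2 (mean 2.47 ± 0.22, SD, n = 2), or 6.17-fold and 4.96-fold. Among members with a mean exon level of at least 10 FPKM the mean difference was 0.69, since that filter leaves *Lars2* as the only mitochondrial gene. Summed exon FPKM was 447.5 and 346.4 for the cytosolic set and 64.6 and 60.8 for the mitochondrial set, a ratio of 6.93 and 5.70. In both mice 11 of 20 cytosolic genes stood above every mitochondrial gene, and 9 of 14 mitochondrial genes stood below every cytosolic gene. The sets therefore overlapped only through the 5 higher mitochondrial genes. Counted by mouse, 17 cytosolic genes stood above every mitochondrial gene in replicate 1 and 11 in replicate 2. In replicate 2 *Lars2* (16.5 FPKM) exceeded the lower cytosolic genes. It also exceeded *Aars*, *Tars*, *Vars* and *Mars* of the middle group, at 14.1 to 16.4 FPKM. Median exon GC content was 50.9% in the cytosolic and 50.7% in the mitochondrial set, and median exon length was 2620.5 and 3620 bp.

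A mitochondrial enzyme could be paired with the cytosolic gene for the same amino acid in 15 pairings, with both *Farsa* and *Farsb* set against *Fars2*. The cytosolic gene was higher in both mice in 14 of 15 pairings, at least 2-fold higher in 12, more than 5-fold in 7 and more than 10-fold in 4. The serine pair differed most, with *Sars* at 25.4 and 16.6 FPKM and 21.2 and 27.7 times *Sars2*. As *Sars2* is close to the last printed decimal, rounding alone allows 20.3 to 22.1 times in replicate 1 and 25.5 to 30.3 times in replicate 2. *Eprs* exceeded *Ears2* 14.3-fold and 12.8-fold, and *Nars* exceeded *Nars2* 16.1-fold and 11.2-fold. The alanine pair differed 10.6-fold and 12.2-fold, and the valine pair 9.64-fold and 12.8-fold. In those 5 pairings the cytosolic gene belonged to the upper or middle group and the mitochondrial gene to the lower one.

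Among pairs with a mitochondrial gene of the upper group the fold ranged from below 1 to 6.52. *Hars* was 3.28 and 3.07 times *Hars2*, *Iars* was 2.20 and 2.41 times *Iars2*, and *Rars* was 6.52 and 5.07 times *Rars2*. The leucine pair differed 2.24-fold in replicate 1 and 1.05-fold in replicate 2, with *Lars* lower (22.2 and 17.3 FPKM) and *Lars2* higher in replicate 2. For phenylalanine the order was turned: *Farsa* stood at 0.538 and 0.513 times *Fars2*, while *Farsb* stood at 1.03 and 1.53 times. The tyrosine pair was the least steady between the mice, at 5.48-fold and 2.38-fold. The remaining pairs, for threonine, tryptophan and cysteine, lay at 9.32-fold and 8.20-fold, 4.61-fold and 3.73-fold, and 3.18-fold and 2.90-fold.

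**Figure D2:**
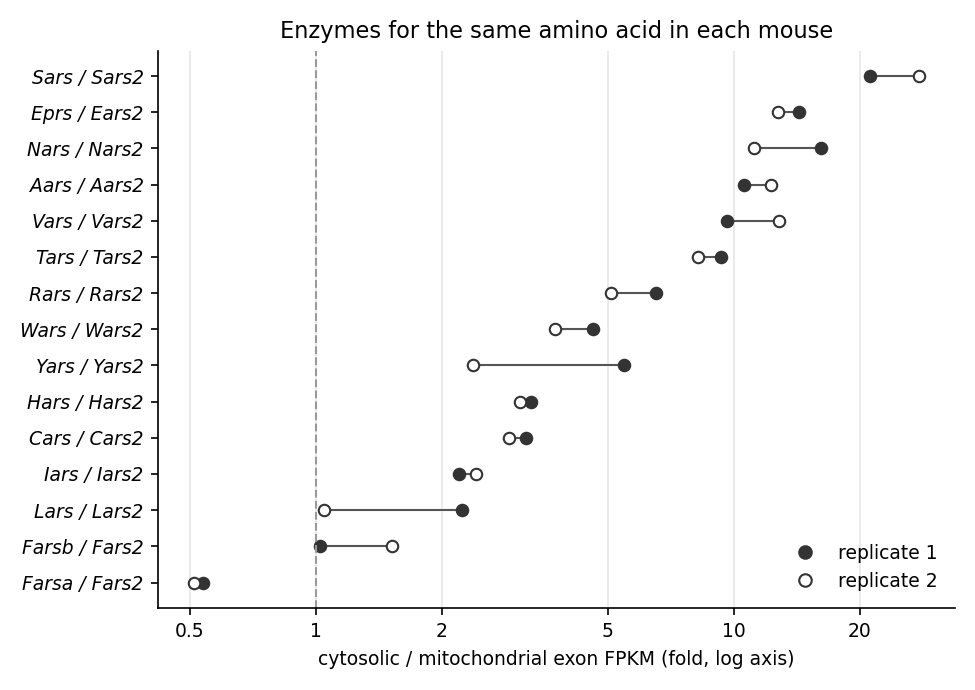
Exon FPKM of the cytosolic gene divided by that of the mitochondrial gene for the same amino acid (log axis), for 15 pairings. Filled points are replicate 1, open points replicate 2, and the dashed line marks equal levels. Only *Farsa* to *Fars2* lies below the line in both mice (0.538 and 0.513), and *Sars* to *Sars2* is the largest (21.2 and 27.7).

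Other genes of mitochondrial charging were mostly low, with *Gatc* above the medians of the 9845 genes in both mice. *Pars2*, the proline enzyme, was measured at 0.6 and 0.7 FPKM. *Gatb*, *Gatc* and *Qrsl1* encode the 3 subunits of the amidotransferase that makes glutaminyl-tRNA in mitochondria, which lack a glutamine enzyme of their own. *Gatb* was measured at 2.2 FPKM in both mice, *Gatc* at 6.8 and 10.5 FPKM and *Qrsl1* at 3.6 and 1.9 FPKM. *Mtfmt*, which formylates the initiator methionyl-tRNA, was measured at 2.9 and 2.0 FPKM. The median of mean levels over these 5 genes was 2.45 FPKM, close to the 2.80 FPKM of the mitochondrial synthetases.

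Total RNA also holds unspliced transcripts, which give reads in introns. Cytosolic genes had a median intron level of 0.6 FPKM in both mice and mitochondrial genes of 0.3 and 0.25 FPKM, compared with 0.4 FPKM over the 9845 genes. On the log2(intron FPKM + 0.1) scale the difference of medians was 0.81 and 1.01 (mean 0.91 ± 0.15, SD, n = 2), or 1.75-fold and 2.02-fold. These levels are only a few steps of the last decimal, and rounding alone allows a mean difference from 0.62 to 1.22. With a pseudocount of 1 the mean difference was 0.33.

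By pair, the cytosolic gene had the higher intron level in both mice in 11 of 15 pairings and the lower in both in 0, with 4 mixed or equal. *Rars*, at 1.0 and 1.4 FPKM, and *Vars*, at 1.3 and 1.1 FPKM, had the highest intron levels by their means (1.20 FPKM each). *Sars2* was lowest at 0.1 FPKM and a listed 0. *Lars2*, with 91311 bp of introns, had an intron level of 0.1 FPKM in both mice although its exon level was the highest of the mitochondrial set. *Fars2* spans 418057 bp of introns, the longest among the members, with intron levels of 0.3 and 0.2 FPKM. In the annotation both genes overlap a long noncoding RNA gene on their own strand. *Lars2* overlaps *Gm46137* over 8819 bp and *Fars2* overlaps *Gm40912* over 20270 bp.

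The exon level exceeded the intron level more in the cytosolic set. The median log2 ratio of exon FPKM + 1 to intron FPKM + 0.1 was 4.98 and 4.61 for cytosolic genes, 3.54 and 3.57 for mitochondrial genes and 3.88 and 3.79 for the 9845 genes. The cytosolic excess in that ratio was 1.44 and 1.04 (mean 1.24 ± 0.29, SD, n = 2). By means, *Lars2* (6.11), *Gars* (5.93) and *Kars* (5.89) had the highest log2 ratios and *Ears2* (2.75) and *Tars2* (2.76) the lowest. Spearman's rho between mean exon and mean intron level was 0.65 across the 34 members, 0.46 within the cytosolic and 0.34 within the mitochondrial set, over genes that share the 2 libraries and a coarse intron scale.

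**Figure D3:**
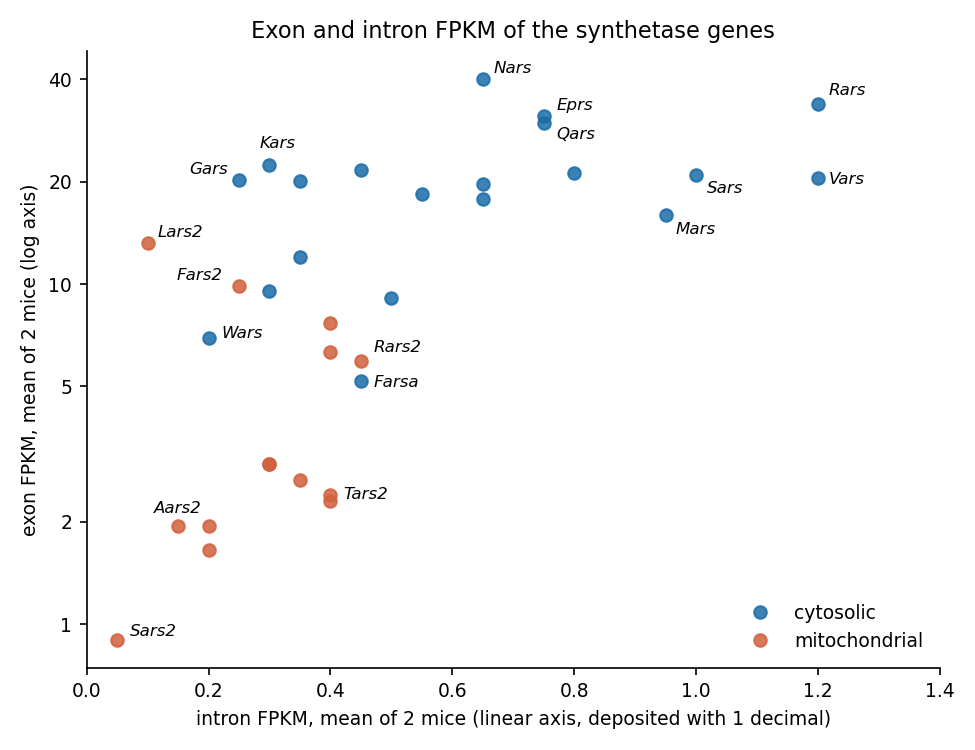
Mean exon FPKM of the 2 mice (log axis) against mean intron FPKM (linear axis) of the 34 genes, cytosolic in blue and mitochondrial in orange. Mitochondrial genes reach at most 0.45 FPKM in introns, while 12 cytosolic genes lie above that value, up to 1.20 FPKM for *Rars* and *Vars*.

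The 8 cytosolic synthetase genes *Dars*, *Eprs*, *Iars*, *Kars*, *Lars*, *Mars*, *Qars* and *Rars* encode enzymes that assemble into 1 large complex on the scaffold proteins AIMP1, AIMP2 and EEF1E1. The mean exon levels of the 8 genes lay between 15.95 and 33.95 FPKM. The 12 cytosolic genes outside it ranged more widely, from 5.20 FPKM for *Farsa* to 40.15 FPKM for *Nars*, with a median of 20.15 FPKM compared with 21.1 FPKM in the complex. Thus the 5 lowest cytosolic genes all lay outside the complex. Among the scaffold genes *Aimp1* was measured at 35.0 and 18.7 FPKM, *Aimp2* at 6.7 and 7.8 FPKM and *Eef1e1* at 30.5 and 59.7 FPKM. *Aimp1* was higher in replicate 1 and *Eef1e1* in replicate 2, so the scaffold genes did not move together between the mice.

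By catalytic fold, synthetases form class I and class II. The median of mean exon levels was 17.75 FPKM over 9 cytosolic class I genes and 20.6 FPKM over 10 class II genes, leaving out *Eprs*, whose protein holds an enzyme of each class. The ranges overlapped almost fully, at 6.95 to 33.95 FPKM and 5.20 to 40.15 FPKM.

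The 2 mice share a genotype and day, so their difference is a measure of spread. No member of the 33 that passed the filter was more than 2-fold apart on the log2(exon FPKM + 1) scale, compared with 5.90% of the 9845 genes. Without that pseudocount the ratio of replicate 2 to replicate 1 was 0.468 for *Cars*. With a pseudocount of 0.1, *Aars2*, *Cars* and *Vars2* were more than 2-fold apart, 3 of 33 members compared with 11.1% of the 9845 genes. The count thus turned on how low values were treated. Replicate 2 was lower for 25 of 33 members, compared with 55.4% of the 9845 genes. After GC correction it was lower for 27 of 33, compared with 50%. With each mouse rescaled to the same summed exon FPKM it was lower for 33 of 33, compared with 97.8%.

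The median log2 ratio of replicate 2 to replicate 1 was -0.46 for cytosolic genes, -0.24 for mitochondrial genes and -0.076 for the 9845 genes. After GC correction these medians were -0.26, -0.12 and 0.00051. The summed cytosolic exon level in replicate 2 was 0.774 times that in replicate 1, and the mitochondrial sum 0.941 times. On the deposited scale replicate 2 was thus the lower mouse for both sets, and whether the sets differed in this was not tested. *Cars* (-0.98), *Aars* (-0.91) and *Vars* (-0.89) had the lowest ratios, and *Lars2* (0.68) and *Yars2* (0.44) the highest. *Vars* has an exon GC content of 61.0%, and its ratio was -0.08 after GC correction, while *Cars* remained at -0.69 and *Aars* at -0.54. *Lars2* was at 0.79 after correction. Spearman's rho between exon GC content and this ratio was -0.65 across the 34 members and -0.66 across 9839 genes, all from the same 2 libraries.

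**Figure D4:**
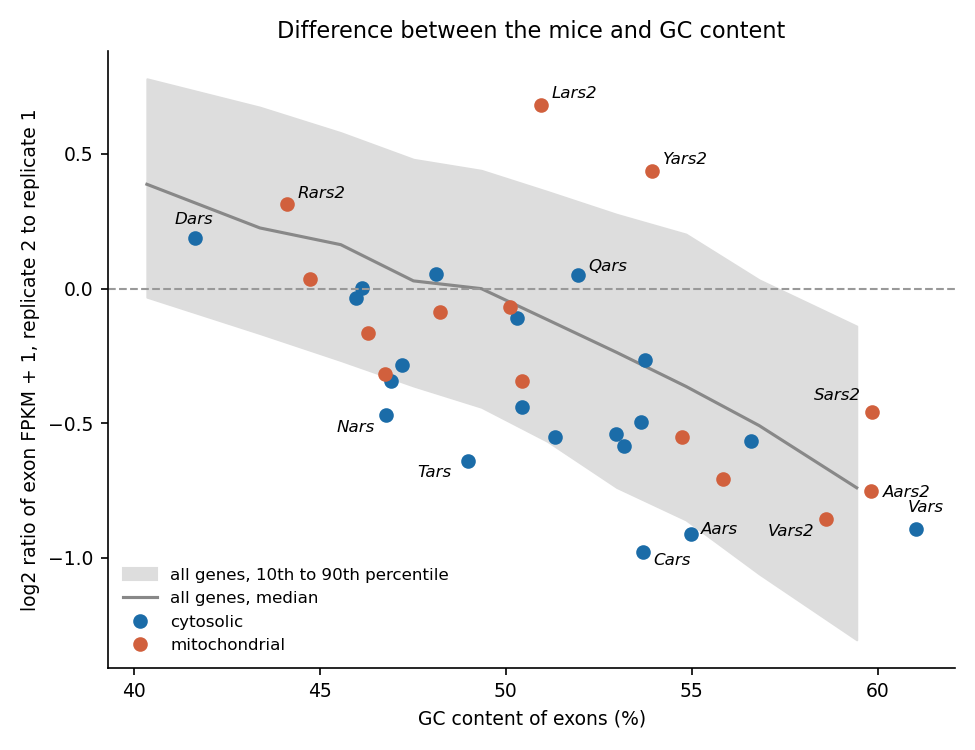
Log2 ratio of exon FPKM + 1 of replicate 2 to replicate 1 against the GC content of exons (%). Cytosolic genes are blue and mitochondrial genes orange, the grey line is the median of 10 groups of genes of equal size by GC content, and the grey band runs from their 10th to their 90th percentile. Both sets slope down with GC content, *Lars2* (0.68) and *Yars2* (0.44) lie above the band, and *Nars*, *Tars*, *Cars* and *Aars* are among those below it.

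The median log2 ratio was -0.13 over the 8 synthetase genes of the multisynthetase complex and -0.55 over the 12 other cytosolic genes, and the difference between these groups of genes was not tested. The scaffold genes *Aimp1* (-0.87) and *Eef1e1* (0.95) were further apart than any of the 8. Replicate 2 was lower for 4 of 8 genes in the complex and for 12 of 12 outside it, compared with 55.4% of the 9845 genes. The summed level was lower by 9.42% in the complex and by 33.1% outside it. Exon GC content moved with this split, with medians of 47.7% in the complex and 53.1% outside. After GC correction the medians were -0.11 and -0.32, and replicate 2 was lower for 5 of 8 and 12 of 12, compared with 50% of the 9845 genes.

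Markers of cell types also differed between the mice. The summed level of the 3 luminal genes in replicate 2 was 0.593 times that in replicate 1, with 3 of 3 lower (55.4% of the 9845 genes). That of the 7 milk protein genes was 2.69 times, with 6 of 7 higher. After GC correction 3 of 3 luminal genes were lower (50% of the 9845 genes) and 7 of 7 milk protein genes higher. The log2 ratio moved with this correction from -1.05 to -0.53 for *Krt8* and from -1.32 to -0.84 for *Krt18*. For adipocyte, fibroblast, endothelial, leukocyte and myoepithelial lists the factors were 1.17, 1.14, 0.870, 0.795 and 0.749, and each of these lists held genes that were higher and genes that were lower in replicate 2. Among the fibroblast genes, *Dcn* was measured at 42.9 and 78.4 FPKM and *Col1a1* at 23.5 and 11.2 FPKM. Their exon GC contents were 43.4% and 58.9%. None of the lists except that of myoepithelium held a gene listed at 0 in both mice. The part of cell composition in the synthetase values was not tested, and in bulk tissue fewer cells of a type and less RNA per cell cannot be told apart.

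Several cytosolic synthetase genes are known targets of ATF4, a transcription factor made in larger amounts when uncharged tRNA accumulates or the endoplasmic reticulum is under stress. *Atf4* itself had an exon level of 164 and 160 FPKM. *Asns*, asparagine synthetase, was measured at 38.3 and 47.6 FPKM, and *Trib3*, a pseudokinase that restrains ATF4, at 18.5 and 13.5 FPKM. These 3 were the highest of 12 genes of the response, whose median of mean levels was 4.225 FPKM. *Mthfd2*, a mitochondrial folate enzyme, was at 0.5 and 0.3 FPKM, and *Slc7a11*, a cystine transporter, at 0.8 and 0.9 FPKM. Of the 12, 9 had a mean exon level of at least 1 FPKM. Replicate 2 was lower for 9 of 12 (55.4% of the 9845 genes), and 2 were more than 2-fold apart on the log2(exon FPKM + 1) scale (5.90% of the 9845 genes). After GC correction replicate 2 was lower for 5 of 12 and higher for 7, so the split of the list turned with GC content. Of the 12, 0 were then more than 2-fold apart (1.92% of the 9845 genes). The lower genes were *Ddit3*, *Phgdh*, *Mthfd2* (-0.17), *Chac1* (-0.13) and *Slc7a11* (-0.27). *Mthfd2*, *Chac1* and *Slc7a11* had means below 1 FPKM and so are not among the 9845 genes. The 2 genes more than 2-fold apart before correction were *Phgdh*, the first enzyme of serine synthesis, at 12.3 and 4.2 FPKM, and *Ddit3*, a stress-induced transcription factor, at 4.0 and 1.1 FPKM. Their log2 ratios after correction were -0.79 and -0.85. *Ddit3* overlaps *Mars* by 71 bp on the opposite strand.

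The 4 genes of proofreading gave values within the range of the lower synthetases. *Aarsd1*, which edits mischarged alanyl-tRNA, was measured at 9.2 and 4.3 FPKM and *Prorsd1* at 5.9 and 6.8 FPKM. *Dtd1*, which removes D-amino acids from tRNA, was measured at 4.2 and 3.4 FPKM, and *Dtd2* at 2.7 FPKM in both mice.

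Of the listed members, 12 cytosolic and 14 mitochondrial genes, *Mars2* among them, had a RefSeq promoter window on GRCm38.p6, from 250 bases before to 50 bases after the annotated start. *Cars*, *Hars*, *Lars*, *Mars*, *Nars*, *Rars*, *Vars*, *Wars* and *Hars2* were not in that table. Each window was searched on both strands for TGATGNAA, the core letters of the composite element bound by ATF4 with a C/EBP protein. It was found in 5 of 12 cytosolic windows, 0 of 14 mitochondrial windows and 4 of 12 windows of the amino acid response genes, compared with 4.51% of 27025 genes. The narrower TGATGCAA, which is contained in it, was found in 4 of 12, 0 of 14 and 2 of 12, compared with 1.03% of genes. The 5 cytosolic matches and that of *Asns* are printed 5′ to 3′ on the strand of the gene because they carry this difference between the sets, with the match in capitals (where the capitals read TT at their left end, the motif lies on the opposite strand).

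*Aars*, chr8:111033704-111033763, plus strand: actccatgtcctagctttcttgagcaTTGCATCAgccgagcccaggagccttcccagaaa
*Gars*, chr6:55037960-55037989, plus strand: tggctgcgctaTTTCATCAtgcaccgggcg
*Iars*, chr13:49682126-49682155, plus strand: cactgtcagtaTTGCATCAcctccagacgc
*Tars*, chr15:11399655-11399684, minus strand: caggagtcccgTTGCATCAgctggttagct
*Yars*, chr4:129189895-129189924, plus strand: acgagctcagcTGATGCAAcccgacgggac
*Asns*, chr6:7693214-7693243, minus strand: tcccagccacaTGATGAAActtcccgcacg

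The match began 112 bp before the annotated start in *Aars*, 30 bp before it in *Gars*, 15 bp before it in *Tars* and 23 bp before it in *Asns*. In *Iars* and *Yars* it began 7 bp and 3 bp after the start, inside the first exon. A second match in *Aars* began 9 bp after the start. The 5 cytosolic genes with a match had mean exon levels from 9.55 to 21.6 FPKM (median 20.2), and the 7 with a window and no match from 5.20 to 31.25 FPKM (median 21.0), so the groups overlapped. A match is a description of letters and was not tied to binding, since binding data were not analysed here.

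Other motifs separated the sets less. CACGTG, the E-box, was found in 4 of 12 cytosolic windows and 1 of 14 mitochondrial windows, compared with 8.09% of genes. CCGGAAG, the core of ETS family sites, was found in 4 of 12 and 4 of 14, compared with 9.93%. TTCNNNGAA, the palindrome bound by STAT5, was found in 2 of 12 (*Aars* and *Kars*) and 1 of 14 (*Nars2*), compared with 9.55%. The cyclic AMP response element TGACGTCA was found in none of the 26 windows, compared with 2.03% of genes. Its first 5 letters, TGACG, were found in 4 of 12 and 5 of 14, compared with 23.0%.

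*Hars* and *Hars2* lie head to head on chromosome 18, with annotated starts 4 bp apart, and their exon levels of 23.3 and 16.9 FPKM and of 7.1 and 5.5 FPKM were both lower in replicate 2. Within 1000 bp, 10 of 34 members (29.4%) had an oppositely oriented start of another gene. The share was 14.9% of 9839 genes with a mean exon level of at least 1 FPKM. Among the 10 are *Hars* and *Hars2*, each the partner of the other, and *Sars2*, whose mean was below 1 FPKM. *Kars* and *Terf2ip*, a telomere protein gene, have starts 5 bp apart, and *Rars2* and *Orc3*, an origin recognition gene, 15 bp apart. *Sars2* starts 147 bp from *Mrps12*, a mitochondrial ribosomal protein gene, whose exon level of 36.1 and 15.2 FPKM exceeded that of *Sars2* in both mice. *Terf2ip* was measured at 7.6 and 6.5 FPKM, below *Kars* in both mice, and *Orc3* at 2.0 and 2.6 FPKM, below *Rars2* in both.

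No member had another place on the chromosomes that matched at least 50% of its coding sequence at 95% identity or more. A less similar place of that length was found for 3 members: *Iars* 1 at 94.5% identity, *Hars2* 1 at 85.6%, and *Kars* 11 between 79.0% and 87.4%. *Iars* also contains 2 annotated snoRNA genes on its own strand. How reads that map to several places were treated is not given in the sources used here, so the values of these genes carry that uncertainty. Only coding sequences were searched for similar places, so other parts of the exons were not covered.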

How the data were processed

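Total RNA-seq of mammary tissue from 2 wt/Wap-Tbrg4 mice (L10) was used. The authors extracted RNA with a PureLink kit, made stranded total RNA libraries (TruSeq) and ran them on a HiSeq instrument. Reads were mapped to mm10 with STAR and counted with HTSeq, separately for the merged exons of a gene and for its introns. From these counts the authors made the deposited FPKM values with DESeq2. Tool versions, the scaling total, strand setting and treatment of reads mapping to several places are not given in the sources used here. Read counts could not be recovered from values with 1 decimal, so depth could not be stated and no counting interval is given. Where milk protein genes take most fragments, the choice of scaling affects the FPKM of every other gene.

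Groups were taken from the labels. Of 20550 rows, 35 without a usable symbol were left out. Positions, lengths and GC content came from RefSeq on GRCm38.p6, the assembly named mm10 by UCSC, which matched 20444 genes (99.7%). Levels were compared as log2(exon FPKM + 1) and log2(intron FPKM + 0.1), as medians over members in each mouse and as mean ± SD of 2 mice. Differences between the mice used genes whose exon FPKM averaged 1 or more. Where GC correction is named, a lowess fit over 30% of genes was used. That fit was tried on simulated data with a straight GC trend and changes larger than those of any member. The simulation therefore does not check smaller corrected shifts. Coding sequences were aligned to the genome with minimap2 2.31. Other computations used Python 3.11.15, pandas 2.3.3 and statsmodels 0.14.6. With 1 group, no test between groups was possible and no p-value is given. The genes named are all listed synthetases and fixed lists of the complex scaffold, other charging factors, proofreading, the amino acid response and cell type markers. Members and lists were chosen with earlier results of these data known. Alternatives were the pseudocount, filters, scaling, GC correction, the mean in place of the median and leaving out a mouse, *Lars2*, or *Gars* and *Kars*. A gene that the lists of named genes also held is not reported here. ChIP-seq samples were not analysed here.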

Additional observations from a re-analysis of the deposited data

How the results depend on the processing

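All alternatives kept the direction of the set comparisons, and 29 values lay within the spread of the mice or, for counts, within 1.5 times, while 9 did not. For the differences of medians, a value from 1 of the 2 mice always lies within that spread. Those values among the 29 were therefore fixed in advance and are no check. The exon difference of medians was 2.81 with a pseudocount of 0.1, 0.69 among members with a mean of at least 10 FPKM and 2.03 as a mean over members. The intron difference was 0.33 with a pseudocount of 1 and 1.14 with each mouse rescaled to an equal sum. The difference in the exon to intron ratio was 1.73 with a pseudocount of 0.1 on both. Between the mice, rescaling to an equal sum moved the cytosolic median to -1.39 and the mitochondrial one to -0.92, because it shifts all genes by -1.07 before the pseudocount. With a pseudocount of 0.1, 3 members were more than 2-fold apart, compared with 11.1% of the 9845 genes. Leaving out either mouse gave 2.31 to 2.62 for exons, 0.81 to 1.01 for introns, 1.04 to 1.44 for the ratio and 14 to 14 pairings, each from 1 mouse without error. Of the 14 pairings, 12 passed 2-fold.

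For single genes the log2 ratio of replicate 2 to replicate 1 changed sign in 15 of the values tried. After rescaling it was -0.82 for *Dars*, -0.94 for *Iars*, -0.97 for *Qars*, -1.03 for *Rars*, -0.30 for *Lars2*, -0.72 for *Nars2*, -0.58 for *Rars2* and -0.31 for *Yars2*. After GC correction it was -0.12 for *Dars*, 0.022 for *Mars*, -0.11 for *Rars*, -0.14 for *Nars2* and 0.28 for *Sars2*. After centring on the median of all genes it was 0.043 for *Farsb* and 0.0096 for *Iars2*.

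No paired analysis was possible because the RNA-seq files hold 1 group. The planned relation of amino acid demand to synthetase level was not run, as it needs protein sequences. Depth is unknown, and rounding to 1 decimal limits the intron levels and *Sars2* most.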
